A study of Mus musculus with 12 samples.

Results

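The prehypertrophic zone is the middle layer of the growth plate, between the column of dividing chondrocytes and the layer of enlarged cells next to the bone front. The 4 samples labelled prehypertrophic were compared with the equally weighted mean of 4 samples of the proliferative zone and 4 of the hypertrophic zone, so 4 of the 12 samples in the series belong to the middle layer. Swiss White mice aged 14 days supplied the femoral growth plate cartilage for all 3 groups, the zones were microdissected from cryosections, and the labels name no mutation or treatment. The amplified RNA was hybridised in pairs of zones to 6 Agilent 2-colour arrays, with each pair of zones on 2 arrays of opposite dye orientation. Nothing in the labels ties the 4 samples of a zone to separate animals, so the p-values below measure the spread between these samples, which may be technical.

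Chondrocytes leave the cell cycle in the middle layer, begin to secrete Indian hedgehog (Ihh), and then enlarge. Ihh signals through the receptor Patched 1 to neighbouring cells and sustains production of parathyroid hormone-related protein nearer the joint, which acts back on the receptor Pth1r to delay enlargement. The transcription factors Mef2c, Foxa2 and Foxa3 are known to promote the later hypertrophic programme in mouse cartilage.

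Each value below is either a level or a difference, both on the log2 scale. A level is the log2 signal of a probe minus the 75th percentile of its sample, and levels of different probes are not comparable. A difference is the fitted log2 difference of prehypertrophic samples from the mean of both outer zones, given with its standard error (SE), and the differences from the proliferative and the hypertrophic zone alone are called steps. A gene was called highest or lowest in the middle layer when both steps passed the test in the same direction (limma, Benjamini-Hochberg adjusted p below 0.05). Where a gene is said to be highest or lowest by a value, that value is the difference from the outer mean. The step against the nearer zone can be much smaller. Where a gene had several probes, the brightest one was used, and where another probe of a gene described here moved much less or the other way, its difference is given or it is said whether the call held with probes averaged.

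Each sample had 92.6% to 96.2% of its spots well above background. Levels correlated with r = 0.97 to 0.981 between prehypertrophic samples, 0.934 to 0.962 between prehypertrophic and proliferative samples and 0.913 to 0.945 between prehypertrophic and hypertrophic samples. Bright probes saturated the scanner, with 7 to 294 saturated spots a sample and the most in prehypertrophic sample 4, where Scin, Crispld1, Pth1r, Mef2c, Sox9, Klf2, Bnip3, Msmo1, Panx3 and Alpl were saturated, so that their levels there are at least as high as given. These arrays are bulk tissue, so fewer cells of a type and less RNA per cell cannot be told apart. The zone labels were checked against known markers. Ihh, Pth1r and Mef2c were far above the proliferative level in the samples labelled prehypertrophic, and the values are given below. Their steps against the hypertrophic zone were small (-0.08, 0.43 and 0.13). These markers therefore set the prehypertrophic labels apart from the proliferative ones and hardly check them against the hypertrophic ones. Cd200, a surface protein of differentiating chondrocytes, averaged 3.80 ± 0.13 in prehypertrophic samples, -0.22 ± 0.34 in proliferative samples and 3.36 ± 0.19 in hypertrophic samples (SD, n = 4 each).

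Of 27173 features tested, 13865 (51.0%) differed between the prehypertrophic zone and the mean of the outer zones, with 7088 (26.1%) higher and 6777 (24.9%) lower. By at least 2-fold, 442 (1.63%) were higher and 1101 (4.05%) lower. A difference from that mean need not be particular to the middle layer. Of the features called higher, 42.1% were above both outer zones, 15.5% lay between them, 30.3% differed from the hypertrophic zone only and 11.5% from the proliferative zone only. Of those called lower, 42.9% were below both. The step from the proliferative zone was called higher for 6365 features (23.4%) and lower for 6118 (22.5%). The step from the hypertrophic zone was called higher for 8164 (30.0%) and lower for 7617 (28.0%). The highest class held 2982 features (11.0%) and the lowest class 2908 (10.7%). Without the array that paired prehypertrophic sample 3 with proliferative sample 3, 1740 features were highest and 4138 were called higher in the step from the proliferative zone. When both arrays of a pair of zones were averaged before the fit, which leaves fewer values, 4028 features were higher than the outer mean, 1180 highest and 1938 lowest. With both steps at least 2-fold the balance turned, with 133 features (0.489%) highest and 403 (1.48%) lowest. Among those with a gene symbol, 101 were highest, of which 1 was on the list of cell cycle genes, and 340 were lowest, of which 140 were on it. This left 100 highest and 200 lowest genes beyond the cell cycle list.

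**Figure D1:**
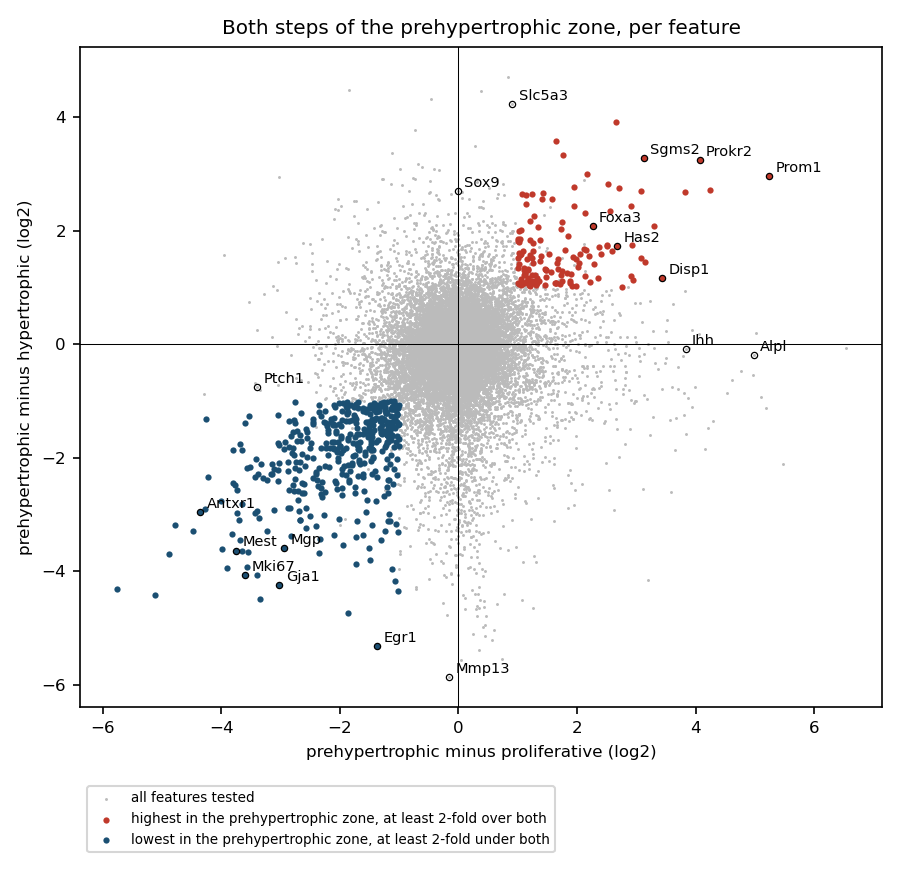
Each point is 1 of the 27173 features tested, with the step from the proliferative zone on the horizontal axis and the step from the hypertrophic zone on the vertical axis, both in log2 units. Red points (133) are highest and dark blue points (403) lowest in the prehypertrophic zone by at least 2-fold on both sides; Ihh and Alpl lie near the horizontal axis, far above the proliferative zone and with small steps against the hypertrophic zone (-0.08 and -0.20).

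The 15 genes that led the highest class included enzymes, membrane proteins, receptors and transcription factors. Sgms2, a sphingomyelin synthase, had levels of 5.49, 5.70, 5.72 and 5.40 in prehypertrophic samples, against 2.61, 2.18, 2.75 and 2.08 in proliferative samples and 2.30, 2.02, 1.90 and 2.48 in hypertrophic samples. The 4 prehypertrophic samples were far above all others, and the difference from the outer mean was 3.21 ± 0.04 (SE; limma, Benjamini-Hochberg adjusted p = 5.58e-05). Its second probe gave 3.26. Smpd3, a neutral sphingomyelinase known to be needed for normal growth plate mineralisation in mice, was also highest, by 1.28 ± 0.03.

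Prom1, the pentaspan membrane protein CD133, had levels of 1.30, 1.38, 1.40 and 1.00 in prehypertrophic samples, against -4.77, -4.55, -3.88 and -3.64 in proliferative and -1.86, -2.44, -2.18 and -1.93 in hypertrophic samples. The groups did not overlap. Its difference was 4.11 ± 0.23, but a second probe of Prom1 gave 0.46. Prokr2, a receptor for prokineticins, had levels of -2.62, -2.38, -2.27 and -2.40 in prehypertrophic samples. In all 4 proliferative and 2 of 4 hypertrophic samples it was not well above background, so its level in the prehypertrophic zone was at least 10.4-fold that of the proliferative zone. The fit for Prokr2 used 5 of 6 array ratios, because an outlier flag removed 1.

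Foxa3, a forkhead transcription factor, had levels of 2.66, 3.0, 2.65 and 2.68 in prehypertrophic samples, against 0.51, 0.12, 0.42 and 0.46 in proliferative and 0.66, 0.30, 0.37 and 0.76 in hypertrophic samples. It stood apart from both neighbours by similar steps, 2.27 from the proliferative and 2.09 from the hypertrophic zone. Dmrt2, a transcription factor of the doublesex family, was higher by 2.69 ± 0.16. Klf8, a Krüppel-like repressor, was higher by 2.74 ± 0.03, with -0.86 to -0.37 in proliferative and -0.85 to -0.53 in hypertrophic samples, though its second probe gave 0.06.

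The other top genes were Epb41l3, a membrane skeleton protein (3.26 ± 0.08), Map3k8, a MAP3 kinase (2.68 ± 0.16), Ehd3, an endocytic trafficking protein (2.59 ± 0.02), and Crispld1, a secreted protein with an LCCL domain (2.56 ± 0.08). Ndrg4 (2.45 ± 0.02), Slc10a4 (2.37 ± 0.05), the kinase Nim1k (2.22 ± 0.02), the sterol reductase Tm7sf2 (2.19 ± 0.04) and the actin-severing protein Scin (1.88 ± 0.09, 5 of 6 array ratios) completed the set of 15. All 15 were higher on each array that paired a prehypertrophic sample with another zone and gave a ratio. The genes with a second probe that moved far less were Prom1, Klf8, Epb41l3 (0.69), Ndrg4 (0.09) and Nim1k (0.65 and 0.69), whereas averaging the probes kept each of the 5 in the highest class.

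**Figure D2:**
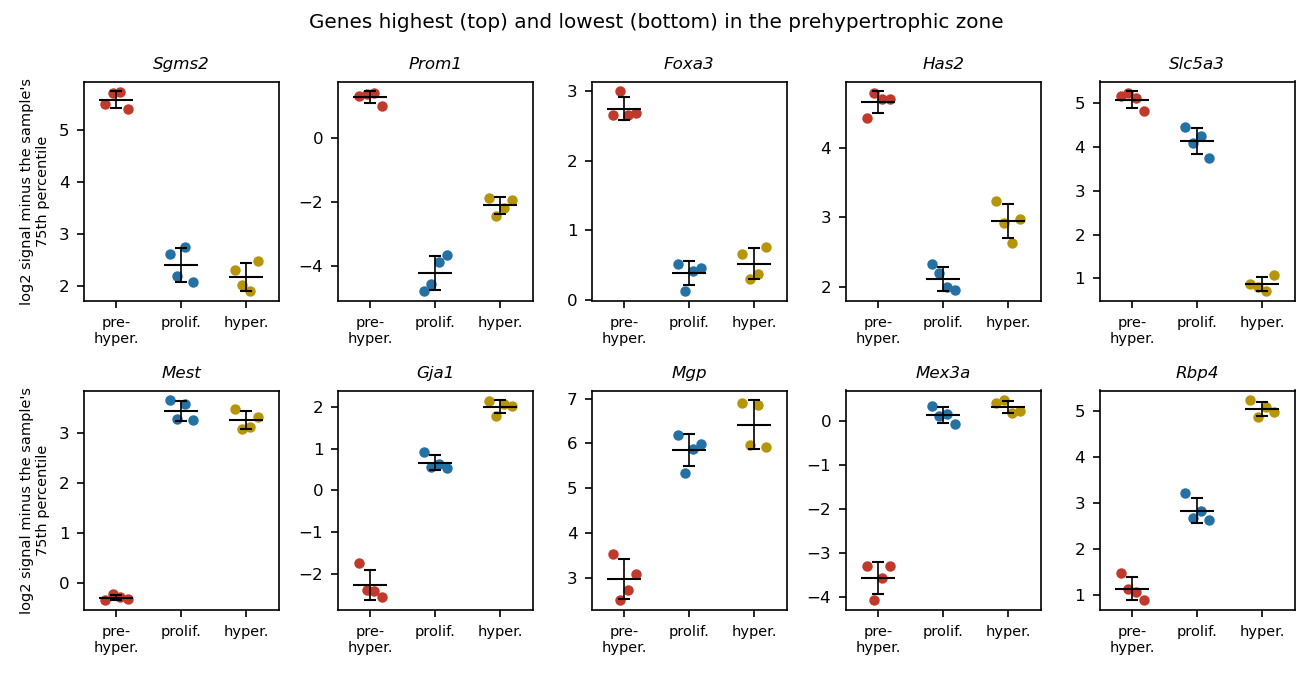
Points are the levels of single samples (log2 signal minus the 75th percentile of the sample), with the mean and SD of each zone, for 5 genes highest (top) and 5 lowest (bottom) in the prehypertrophic zone. In all 10 panels the 4 prehypertrophic points lie beyond every point of the other zones; Mgp spots were saturated in 2 proliferative and 4 hypertrophic samples.

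Over all features 11.0% were highest and 10.7% lowest, and each list's share below is to be read beside these. Among the 39 lists, that for sterol and fatty acid synthesis had the largest share of genes in the highest class. Of 28 measured genes for sterol and fatty acid synthesis, 23 were higher, 2 lower and 3 did not pass. That is 82.1% higher, beside 26.1% of all features, and the median difference was 1.08, against 0.02 over all features. In the highest class were 16 of the 28 (57.1%, beside 11.0% of all features) and in the lowest class 0.

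The 14 sterol enzymes measured on the list were all higher than the outer mean. At the pathway's entry, Hmgcs1, which makes HMG-CoA, was higher by 0.83 ± 0.08 and the mevalonate enzymes Mvk and Mvd by 0.45 ± 0.05 and 1.01 ± 0.02. Idi1 (1.14 ± 0.03), Fdps (1.41 ± 0.02) and Fdft1 (1.20 ± 0.02), which build isoprenoid chains and squalene, were each highest in the middle layer. Sqle, the squalene epoxidase, followed with 1.33 ± 0.02 and the cyclase Lss with 0.87 ± 0.06. The later enzymes that trim lanosterol to cholesterol were Cyp51 (1.22 ± 0.05), Msmo1 (1.55 ± 0.04), Nsdhl (1.71 ± 0.02), Hsd17b7 (1.35 ± 0.02), Sc5d (1.25 ± 0.03) and Dhcr7 (1.29 ± 0.03), all highest. Tm7sf2, which acts between Cyp51 and Msmo1 and was not on the list, is among the 15 top genes above. Of the enzymes named here, Mvk had a step of 0.01 against the hypertrophic zone and Lss a step of 0.06 against the proliferative zone, and neither of those steps passed the test. For the same steps, the second probe of Mvk gave 0.42 and other probes of Lss gave 0.71 and 0.10. Other probes moved less for Idi1 (0.39), Fdft1 (0.26) and Dhcr7 (0.135), and that of Sc5d gave -0.20. Those of Lss (0.19 and 1.22) and Cyp51 (0.46 and 1.68) lay below and above the probe used.

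Nsdhl, the sterol dehydrogenase encoded on the X chromosome, had levels of 3.03, 3.33, 3.38 and 2.88 in prehypertrophic samples, against 2.08, 1.72, 2.02 and 1.48 in proliferative and 1.27, 0.92, 0.88 and 1.13 in hypertrophic samples. All 4 prehypertrophic samples were above the other 8. The other 3 probes of Nsdhl gave differences of 1.50, 0.59 and 1.39, all upward. Msmo1, the C4 methyl oxidase, had 6.20, 6.41 and 5.74 in the 3 prehypertrophic samples with a value, against 3.98 to 4.81 in proliferative and 4.44 to 4.74 in hypertrophic samples. Hsd17b7, the reductase that acts with both in the same demethylation, had 1.83, 2.02, 2.12 and 1.71 in prehypertrophic samples, against 0.41 to 0.82 in proliferative and 0.24 to 0.52 in hypertrophic samples. Its second probe gave 0.56, with a step of -0.31 against the hypertrophic zone.

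Regulators and carriers of sterols moved less evenly. Srebf2, the transcription factor that drives sterol synthesis, and its escort Scap differed by 0.22 ± 0.03 and 0.13 ± 0.02 and were in the highest class, although other probes of Srebf2 gave 0.03 to 0.31. Insig1, which retains that complex, was higher by 0.55 ± 0.03, with no step against the hypertrophic zone that passed by its brightest probe. Its second probe gave 0.915, with a step of 0.97 against the hypertrophic zone. Srebf1, which favours fatty acid synthesis, was lower by -0.28 ± 0.05. The cholesterol carriers Stard4 (1.17 ± 0.02) and Npc1 (1.17 ± 0.03) were highest. Fatty acid enzymes followed another course: Fasn (0.57 ± 0.02), Fads2 (0.65 ± 0.04), Scd1 (1.33 ± 0.03) and Scd2 (1.23 ± 0.16) were higher than the outer mean through the step against the hypertrophic zone, with steps from the proliferative zone of -0.45, -0.21, 0.07 and 0.14. Elovl5, a fatty acid elongase, was highest (1.24 ± 0.03), while Elovl6 was lower (-0.37 ± 0.05). Acly, Acaca and Fads1 did not pass, with 0.30, 0.10 and -0.06. A second probe of Fasn gave -0.15.

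**Figure D3:**
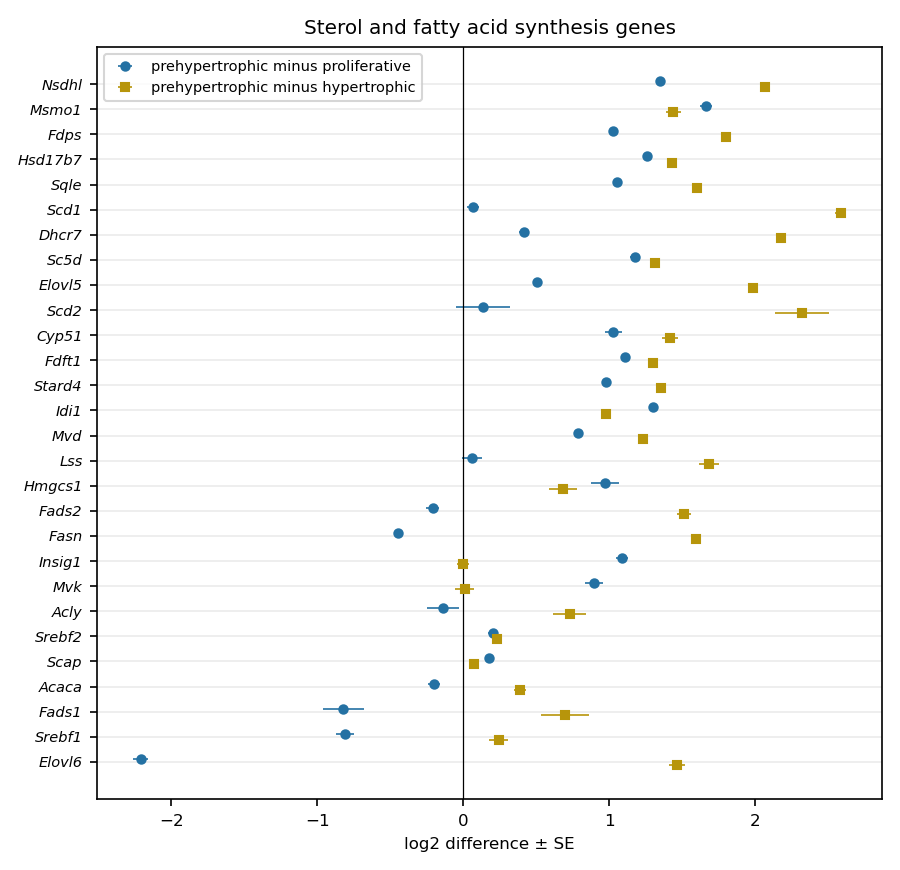
Points are the 2 steps of each of the 28 measured genes for sterol and fatty acid synthesis, in log2 units with their SE, ordered by the difference from the outer mean; circles give prehypertrophic minus proliferative and squares prehypertrophic minus hypertrophic. The sterol enzymes lie to the right of 0 in both steps or at 0 in one of them, whereas the fatty acid genes Fasn, Fads1, Fads2, Srebf1 and Elovl6 lie left of 0 against the proliferative zone, as do Acly and Acaca.

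Since these genes moved together, the promoters of the 3 with the largest difference and a single RefSeq promoter window are shown. Each is the 250 bases before the gene's start in GRCm38.p6, read 5′ to 3′ on the gene's strand, with the letters CCAAT, or their complement ATTGG, in capitals. CCAAT is the recognition sequence of the factor NF-Y, a known partner of the sterol regulatory proteins.
Nsdhl, chrX:72918271-72918520, plus strand: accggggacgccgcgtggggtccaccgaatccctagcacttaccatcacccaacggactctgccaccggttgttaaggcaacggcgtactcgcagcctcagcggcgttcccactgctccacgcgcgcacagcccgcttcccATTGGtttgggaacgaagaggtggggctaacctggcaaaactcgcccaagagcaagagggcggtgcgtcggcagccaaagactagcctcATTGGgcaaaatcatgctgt
Msmo1, chr8:64733579-64733828, minus strand: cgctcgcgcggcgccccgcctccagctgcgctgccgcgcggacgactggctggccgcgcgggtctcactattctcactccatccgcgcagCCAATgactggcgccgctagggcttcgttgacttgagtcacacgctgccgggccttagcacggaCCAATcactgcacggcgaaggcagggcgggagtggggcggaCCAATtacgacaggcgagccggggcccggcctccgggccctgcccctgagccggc
Hsd17b7, chr1:169969206-169969455, minus strand: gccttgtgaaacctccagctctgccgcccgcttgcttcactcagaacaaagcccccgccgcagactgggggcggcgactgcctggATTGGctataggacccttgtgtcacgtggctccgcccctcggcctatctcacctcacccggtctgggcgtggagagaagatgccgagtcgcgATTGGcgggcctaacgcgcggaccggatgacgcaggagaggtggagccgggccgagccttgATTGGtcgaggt
Promoter windows were found for 12 of the 16 genes in the highest class, with 15 windows in all. The letters CCAAT occurred on either strand in 11 of the 15 windows (73.3%), against 33.8% of all 32851 windows of this length. The letters CACGTG, the core of an E-box, occurred in 5 of the 15 (33.3%), against 6.02% of all. The letters ATCAC, then any base, then CCAC, a form of the sterol regulatory element searched on both strands, occurred in 0 of the 15 and in 0.192% of all, which says only that these letters are not in these windows. With any base allowed at the next position too, it occurred in 1 of the 15 (6.67%), against 0.609% of all. A match in such a window is a description of the sequence and was not tested for binding.

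In the hedgehog and PTHrP pathway the ligand Ihh had overlapping levels in the prehypertrophic and hypertrophic zones, whereas its releasing protein Disp1 and the PTHrP receptor were highest in the middle layer. Of 20 measured genes, 11 were higher and 6 lower, 5 were highest (25%, beside 11.0% of all features) and 2 lowest (10%, beside 10.7%), and the median difference was 0.18. Ihh, the ligand, had levels of 3.50, 3.61, 3.65 and 3.31 in prehypertrophic samples, against 0.29, -0.58, -0.24 and -0.69 in proliferative and 3.81, 3.40, 3.63 and 3.59 in hypertrophic samples. It was above all proliferative samples and overlapped the hypertrophic ones, with steps of 3.83 ± 0.10 and -0.08 ± 0.10, and the second step did not pass (adjusted p = 0.538). A second probe of Ihh gave a difference of 0.41, against 1.87 for the one used.

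Disp1, which releases lipid-modified hedgehog from the cell, had 3.27, 3.43, 3.43 and 3.10 in prehypertrophic samples, against 0.10, -0.64, 0.12 and -0.42 in proliferative and 2.14, 1.80, 1.86 and 2.19 in hypertrophic samples. No sample of another zone reached the prehypertrophic values, the difference was 2.30 ± 0.05 (adjusted p = 6.62e-05), and a second probe gave 1.87. Scube1, of the family of secreted proteins that carry hedgehog, was highest by 0.74 ± 0.03, although its other probes gave 0.13 and 0.01. The coreceptor Boc (0.50, other probes 0.04 and 0.17) and the stimulatory G protein gene Gnas (0.29, other probes -0.06 to 0.44) were also called highest, and both were named after their values were seen.

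Pth1r, the PTHrP receptor, had 6.49, 6.24, 6.22 and 5.74 in prehypertrophic samples, against 4.56, 4.02, 4.34 and 3.77 in proliferative and 5.83, 5.69, 5.72 and 5.86 in hypertrophic samples. The lowest prehypertrophic value, from the saturated spot of sample 4, lay inside the hypertrophic range, and the step against the hypertrophic zone was 0.43 ± 0.06 (adjusted p = 0.00544). Ptch1, the hedgehog receptor and itself a hedgehog target, had -3.44, -2.69, -2.56 and -2.17 in prehypertrophic samples, against 1.24, 0.79, 0.96 and 0.69 in proliferative and -1.86, -1.92, -2.48 and -2.01 in hypertrophic samples. It was lowest in the middle layer by both steps, -3.40 and -0.75, although the samples overlapped with the hypertrophic ones and a second probe gave a difference of 0.00. Gas1, a coreceptor named after its values were seen to complete the pair called lowest, differed by -0.73. Gli1, a transcriptional effector, did not pass (-0.01 ± 0.03).

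**Figure D4:**
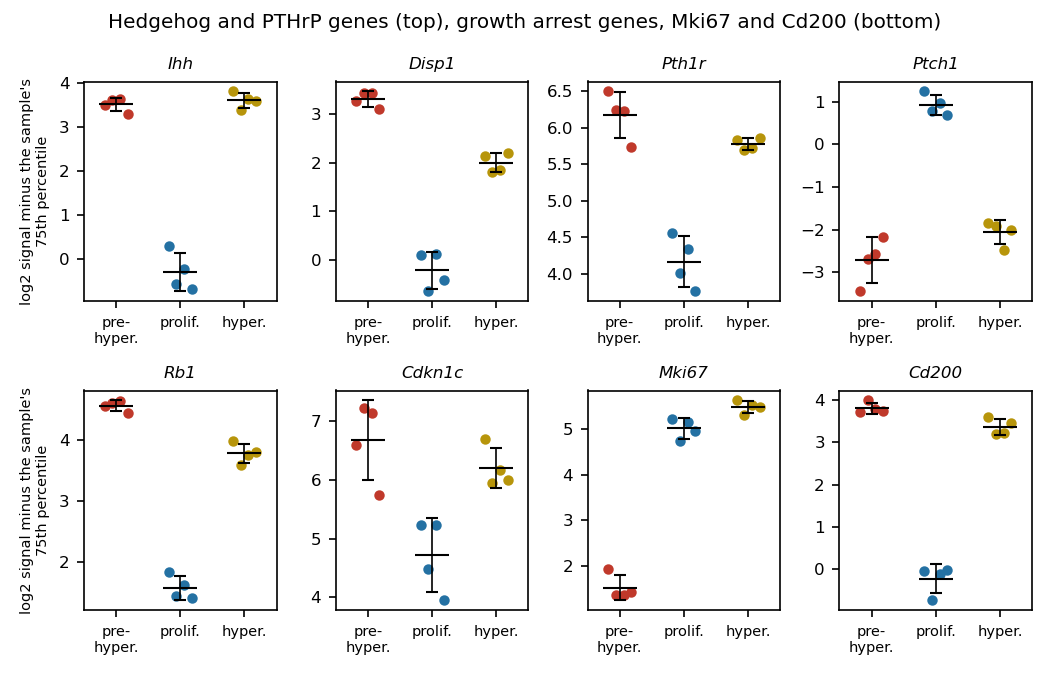
Points are the levels of single samples (log2 signal minus the 75th percentile of the sample), with the mean and SD of each zone. Disp1 and Rb1 exceed both outer zones in all 4 prehypertrophic samples, Ihh overlaps the hypertrophic zone, and Mki67 is lower in the prehypertrophic zone than in any other sample.

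Of 23 measured hypertrophy transcription factors, 10 were higher, 6 lower, 3 highest (13%, beside 11.0% of all features) and 0 lowest. Mef2c was higher by 1.21 ± 0.06, with a step of 2.30 from the proliferative and 0.13 from the hypertrophic zone (second probe 0.26), and Foxa2 by 0.96 ± 0.02, with steps of 1.75 and 0.16. Runx3, a Runt factor, was called highest by 0.15 ± 0.02 with its brightest probe but differed by -0.03 when its probes were averaged. The later differentiation genes Col10a1, the hypertrophic collagen, and Alpl, the mineralising phosphatase, had large steps from the proliferative zone, 3.99 and 4.99, and steps of -0.75 and -0.20 against the hypertrophic zone. Panx3, a channel of prehypertrophic chondrocytes, was highest by 1.07 ± 0.08.

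Of 17 measured hypertrophic chondrocyte genes, 4 were highest and 4 lowest (23.5% each), and of 17 genes for mineralisation and phosphate handling, 4 were highest (23.5%) and 3 lowest (17.6%). Ccn2, a matricellular growth factor, had 3.41, 2.95, 3.08 and 2.93 in prehypertrophic samples, against 4.20 to 4.85 in proliferative and 5.94 to 6.64 in hypertrophic samples. All 4 values were below those of the other zones, and the difference was -2.32 ± 0.07. Spots of Ccn2 were saturated in hypertrophic samples 2 and 4, so its levels there are at least as high as given. Ank, a pyrophosphate exporter, was lower by -2.06 ± 0.06, and Vegfa, the angiogenic factor, by -1.47 ± 0.14, though Vegfa ranged between 0.03 and 2.02 among prehypertrophic samples and was no longer lowest with probes averaged. Fam20c, the kinase of secreted phosphoproteins, was lower by -1.67 ± 0.07, and the metalloproteinase Mmp14 by -1.72 ± 0.03 (second probe -0.26). Mmp13, the collagenase of the last hypertrophic cells, was lower than the outer mean through the hypertrophic zone, with steps of -0.15 and -5.86.

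Sox9, the chondrocyte master factor, had a step of 0.00 from the proliferative zone and of 2.70 from the hypertrophic zone, and it was called highest with probes averaged. Its spots were saturated in proliferative sample 3 and prehypertrophic sample 4. Both arrays that pair these zones thus held a saturated spot, and the step of 0.00 is uncertain. For that step its other probes gave 0.05 and 0.68. Of 26 measured cartilage matrix and SOX genes, 14 were higher and 2 lower than the outer mean, 53.8% higher beside 26.1% of all features. Only Hapln1, the link protein, was highest among those tested (0.50 ± 0.06), and its spots were saturated in 4 prehypertrophic, 3 proliferative and 2 hypertrophic samples. Its fit used 4 of 6 array ratios. The ratio was 1.21 over proliferative sample 3 and 1.135 over hypertrophic sample 4, well above the fitted steps of 0.52 and 0.48, so its difference is uncertain. The list's median step was -0.04 from the proliferative and 1.15 from the hypertrophic zone.

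Genes for hyaluronan synthesis, osmolyte uptake and amino acid uptake were among those highest in the middle layer. Has2, the main hyaluronan synthase of cartilage, had levels of 4.44, 4.79, 4.70 and 4.71 in prehypertrophic samples, against 2.32, 2.19, 1.99 and 1.95 in proliferative and 3.23, 2.92, 2.63 and 2.98 in hypertrophic samples. The prehypertrophic samples were above all others, and the difference was 2.20 ± 0.04 (limma, adjusted p = 5.58e-05). The 42 measured genes for glycosaminoglycan synthesis were otherwise divided, with 17 higher, 17 lower, 7 highest (16.7%) and 4 lowest (9.52%). The count of highest genes in this list was 3 without the array of prehypertrophic sample 4 and proliferative sample 4, and 4 without that of prehypertrophic sample 3 and proliferative sample 3 or that of prehypertrophic sample 1 and hypertrophic sample 3. Chst12, a chondroitin sulfotransferase, was highest by 0.96 ± 0.03, but with a step of 0.18 from the proliferative zone and overlapping samples. The uronyl sulfotransferase Ust and the exostosin-like gene Extl1 were lowest by -1.26 ± 0.05 and -1.18 ± 0.02, although their second probes gave 0.21 and 0.01.

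Slc5a3, which imports the osmolyte myo-inositol, had 5.16, 5.24, 5.12 and 4.82 in prehypertrophic samples, against 4.46, 4.10, 4.25 and 3.74 in proliferative and 0.87, 0.80, 0.72 and 1.08 in hypertrophic samples. The step from the proliferative zone was 0.91 and that from the hypertrophic zone 4.23. Nfat5, the transcription factor of the osmotic response, was also highest, by 0.83 ± 0.02, with other probes at 0.09 to 1.17. The sodium-calcium exchanger Slc8a3 was highest by 0.99 ± 0.05, although its second probe gave -0.07. Of 35 measured ion transport and cell volume genes, 8 were highest (22.9%) and 2 lowest (5.71%), and 5 were highest with probes averaged. Sgk1, a kinase that controls ion transporters, was called lowest by -1.86 ± 0.03, but not with probes averaged. Its steps were -0.14 from the proliferative and -3.58 from the hypertrophic zone.

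Among 27 measured amino acid transporters, 6 were highest (22.2%) and 1 was lowest (3.7%). Slc1a3, a glutamate and aspartate carrier, had 2.14, 2.32, 2.36 and 1.96 in prehypertrophic samples, against 0.21 to 0.60 in proliferative and -1.84 to -1.28 in hypertrophic samples. It was clear of both neighbours, with a difference of 2.61 ± 0.05. The cationic carrier Slc7a3 (1.31 ± 0.02) and the neutral carrier Slc38a4 (1.00 ± 0.02, second probe 0.13) were highest, and the leucine carrier Slc43a1 was lowest (-1.38 ± 0.03). Slc7a3 had a step of 0.12 against the hypertrophic zone, with overlapping samples. In the lysosome and autophagy list, 8 of 35 were highest (22.9%) and 3 lowest (8.57%), with Wipi1, an autophagosome protein, at 0.70 ± 0.03, a call lost with probes averaged, and the hexosaminidase Hexa at -0.64 ± 0.02.

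Signalling genes mostly took places on both sides. In the axon guidance and ephrin list, 12 of 44 were highest (27.3%, beside 11.0% of all features) and 7 lowest (15.9%, beside 10.7%). Epha4, an ephrin receptor, had 0.68, 0.92, 0.93 and 0.57 in prehypertrophic samples, against -2.69 to -2.34 in proliferative and -1.22 to -0.58 in hypertrophic samples. Nrp1, a coreceptor for semaphorins and VEGF, had -1.25, -1.64, -1.08 and -1.44 in prehypertrophic samples, against 0.85 to 1.51 in proliferative and 0.81 to 1.12 in hypertrophic samples. The 2 genes took opposite places, with differences of 2.30 ± 0.05 for Epha4 and -2.41 ± 0.06 for Nrp1, although the other probes of Nrp1 gave -0.74 and 0.06. The plexins Plxna2 and Plxnc1 were called lowest, by -1.60 ± 0.04 and -1.50 ± 0.25, the second of them not with probes averaged, and other probes of Plxna2 gave -0.20 and -0.99. The step of Plxna2 from the proliferative zone was -0.21.

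Of 37 measured Wnt genes, 6 were highest (16.2%) and 1 was lowest (2.7%). The ligands Wnt4 (1.11 ± 0.11) and Wnt5a (0.75 ± 0.02) and the coreceptor Lrp6 (0.64 ± 0.03) were highest, the last 2 not with probes averaged. Lef1, a transcription factor of the pathway, was the gene called lowest, by -2.65 ± 0.12, but its other probes gave -0.22 and 0.59. In the BMP and TGF-beta list 1 of 34 was highest (2.94%), the BMP antagonist Chrdl1 (1.41 ± 0.03, other probes 0.33 and 0.59), and 5 were lowest (14.7%), among them the latency proteins Ltbp3 (-1.48 ± 0.08, second probe -0.24) and Ltbp2 (-0.91 ± 0.05) and the receptor Tgfbr2 (-1.38 ± 0.03), whose other probes gave 0.22 and 0.08. In the FGF list 1 of 19 was highest and 1 lowest (5.26% each). Spred2, an inhibitor of ERK signalling, was lowest (-1.03 ± 0.04, second probe -0.425) and the ligand Fgf18 was highest (0.34 ± 0.04). Spry4, another inhibitor of the pathway, was not well above background in any prehypertrophic or proliferative sample, and the hypertrophic zone had at least 25.8-fold the prehypertrophic level by the brightest probe, while the second probe gave a difference of 0.73.

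For Notch, 0 of 18 were highest and 2 lowest (11.1%, near the 10.7% of all features). The lowest were the target Hey1 (-1.24 ± 0.04) and the receptor Notch2 (-0.70 ± 0.03, other probes 0.21 and -0.47). For the IGF and natriuretic peptide axis, 2 of 18 were highest (11.1%, near the 11.0% of all features) and 0 were lowest. The highest were the cGMP-dependent kinase Prkg2 (0.77 ± 0.02, second probe 0.34) and the cytokine inhibitor Socs2 (0.99 ± 0.03), the second not with probes averaged. Among nuclear receptors and retinoid genes, Thrb, a thyroid hormone receptor, was highest by 1.31 ± 0.03 (other probes -0.11 to 0.82) and the orphan receptor Rora by 0.62 ± 0.03. Rbp4, the retinol carrier, had 1.46, 1.13, 1.06 and 0.89 in prehypertrophic samples, against 2.63 to 3.22 in proliferative and 4.87 to 5.22 in hypertrophic samples. It was lowest in all 4 samples, by -2.80 ± 0.04 (limma, adjusted p = 5.58e-05).

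Immediate-early genes, which respond fast to stimuli and to tissue handling, included 3 highest and 3 lowest of 24. These shares (12.5% each) were near those of all features (11.0% and 10.7%). Egr1, a zinc finger factor, had -1.50, -1.69, -1.75 and -1.65 in prehypertrophic samples, against -0.34 to 0.08 in proliferative and 3.34 to 3.99 in hypertrophic samples. Ier3, a stress-induced gene, was lowest by -1.90 ± 0.09. Klf2 and Klf4, Krüppel-like factors that restrain growth in several tissues, were highest by 2.06 ± 0.05 and 1.42 ± 0.02, although a second probe of Klf2 gave -0.105. Klf4 had 4.63, 4.72, 4.78 and 4.47 in prehypertrophic samples, against 2.37 to 2.91 in proliferative and 3.45 to 3.81 in hypertrophic samples.

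The 15 genes that led the lowest class, cell cycle genes aside, had varied roles. Mest, an imprinted gene, had levels of -0.34, -0.23, -0.29 and -0.32 in prehypertrophic samples, against 3.65, 3.28, 3.59 and 3.27 in proliferative and 3.49, 3.09, 3.13 and 3.33 in hypertrophic samples. The prehypertrophic samples were tightly grouped and far below both neighbours, with a difference of -3.69 ± 0.05 (limma, adjusted p = 5.58e-05). Mex3a, an RNA-binding protein, had -3.29, -4.06, -3.56 and -3.29 in prehypertrophic samples, against -0.07 to 0.36 in proliferative and 0.20 to 0.48 in hypertrophic samples, a difference of -3.75 ± 0.08.

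Gja1, the gap junction protein connexin 43, had -1.74, -2.37, -2.39 and -2.53 in prehypertrophic samples, against 0.92, 0.56, 0.63 and 0.54 in proliferative and 2.13, 1.78, 2.06 and 2.01 in hypertrophic samples. The difference was -3.64 ± 0.09, and connexin 45, Gjc1, was lowest too (-1.17 ± 0.03). Antxr1, a collagen-binding membrane receptor, had -3.36, -3.58, -3.36 and -4.07 in prehypertrophic samples, against 0.61 to 0.85 in proliferative and -0.88 to -0.45 in hypertrophic samples. Mgp, the matrix inhibitor of calcification, had 3.53, 2.51, 2.74 and 3.09 in prehypertrophic samples, against 6.18, 5.34, 5.89 and 5.98 in proliferative and 6.91, 5.96, 6.86 and 5.93 in hypertrophic samples. Its spots were saturated in 2 proliferative and all 4 hypertrophic samples.

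Ttyh3, a chloride channel, differed by -2.73 ± 0.04 and Pik3cd, a phosphoinositide kinase subunit, by -2.53 ± 0.02. Prokr1, the second prokineticin receptor, had -4.85, -4.11, -6.48 and -4.03 in prehypertrophic samples, against -2.55 to -2.16 in proliferative and -2.33 to -1.95 in hypertrophic samples. It was thus low where Prokr2 was high, by -2.63 ± 0.41, and 3 of 4 prehypertrophic samples were well above background. The histone genes H2ac23 (-2.86 ± 0.07) and H2ac13 (-2.89 ± 0.09), the kinetochore gene Nsl1 (-3.12 ± 0.21) and the replication gene Fam111a (-2.90 ± 0.17) were among the 15 although they act in chromatin or division, since the cell cycle list did not hold them. Trim59, a ubiquitin ligase, differed by -2.88 ± 0.08. B3galnt1, a glycosyltransferase, differed by -2.64 ± 0.08. Dock10, a guanine nucleotide exchange factor, gave -3.91 ± 0.19 with its brightest probe, was well above background in 1 of 4 prehypertrophic samples, and had other probes at -0.20 and 0.23. Second probes of Trim59 (-0.63), B3galnt1 (0.00), Pik3cd (-0.08) and Nsl1 (-0.19) also moved far less.

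In 4 lists besides the cell cycle list at least 33.3% of the measured genes were lowest in the middle layer, beside 10.7% of all features. Of 37 measured ribosome biogenesis genes, 24 were lower (64.9%, beside 24.9% of all features) and 13 lowest (35.1%), with a median difference of -0.34. The median step was -0.49 from the proliferative and -0.126 from the hypertrophic zone. Nop56, a nucleolar protein, differed by -1.47 ± 0.03 and Ddx21, an RNA helicase, by -1.03 ± 0.02, although other probes of Ddx21 gave -0.06 and 0.17. Of 29 respiratory chain subunits 10 were lowest (34.5%), among them Ndufa4 (-0.78 ± 0.02) and Sdhb (-0.74 ± 0.02). The median difference of that list was only -0.17. Of 20 genes for serine, glycine and 1-carbon metabolism 7 were lowest (35%), among them Mthfd1 (-1.22 ± 0.02, second probe -0.59) and Phgdh (-1.14 ± 0.03). In that list 9 were lower and 5 higher (25%, near the 26.1% of all features), and the median difference was -0.12. Of 24 chaperones 8 were lowest (33.3%), led by Hsph1 (-1.12 ± 0.02), with a median difference of -0.31. Of 37 cytosolic ribosomal proteins 20 were lower, 7 lowest (18.9%) and 0 higher. The ribosomal protein differences were small, with a median of -0.16 and -0.62 ± 0.02 for Rpl19. As a list they were lower mainly against the proliferative zone, with a median step of -0.34, beside 0.008 against the hypertrophic zone.

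Glycolysis and hypoxia genes did not share this course. Of 29 measured, 12 were higher (41.4%, beside 26.1% of all features) and 9 lower (31%, beside 24.9%). The highest and lowest classes held 4 each (13.8%, near the 11.0% and 10.7% of all features). Bnip3, a hypoxia-induced mitophagy receptor, was highest by 1.61 ± 0.03, and so were the carbonic anhydrase Car12 (1.59 ± 0.05, second probe 0.26) and the aldolase Aldoc (1.14 ± 0.03). Car12 had a step of 0.32 from the proliferative zone, with overlapping samples. The glucose transporter Slc2a3 was lowest by -1.27 ± 0.06, and by -0.37 with probes averaged.

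Cell cycle genes were the list with the largest share at its lowest in the middle layer. Of 305 measured cell cycle genes, 258 were lower and 10 higher, and 229 were lowest (75.1%). Mki67, the proliferation marker, had 1.92, 1.36, 1.36 and 1.42 in prehypertrophic samples, against 5.22, 4.73, 5.15 and 4.95 in proliferative and 5.62, 5.31, 5.54 and 5.49 in hypertrophic samples. The hypertrophic samples were above the proliferative ones, and they also carried the highest summed levels of marrow markers given below; the part of other cells in these values was not tested. Growth arrest genes were split, with 5 of 18 highest and 5 lowest (27.8% each). Rb1, the retinoblastoma protein that holds cells out of the cycle, had 4.57, 4.62, 4.64 and 4.45 in prehypertrophic samples, against 1.84, 1.44, 1.62 and 1.41 in proliferative and 3.98, 3.60, 3.75 and 3.81 in hypertrophic samples, a difference of 1.86 ± 0.02 with a second probe at 1.34. Cdkn1c, a CDK inhibitor needed for chondrocyte exit from the cycle in mice, was highest by 1.27 ± 0.14 with overlapping samples and saturated spots in 3 prehypertrophic and 2 hypertrophic samples. Cdkn2d, another CDK inhibitor, and Gadd45g, a growth arrest gene, were lowest by -1.27 ± 0.03 and -1.87 ± 0.03.

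Most markers of leukocytes, red cells, vessels and osteoclasts were lower than the outer mean, with 16 of 22, 8 of 10, 10 of 16 and 9 of 13 called lower, beside 24.9% of all features. Of the 12 osteoblast markers, 4 were lower and 3 higher. Of 22 leukocyte and marrow markers, 16 were lower and 3 higher than the outer mean, but 2 were lowest. Their median difference was -1.02, and the median steps were 0.12 from the proliferative and -2.40 from the hypertrophic zone. Summed over 21 markers, in multiples of each sample's 75th percentile, the level was 51.6 to 68.9 in prehypertrophic, 41.2 to 58.2 in proliferative and 239 to 344 in hypertrophic samples. The sums of 9 erythroid markers were 6.67 to 12.6 in prehypertrophic, 11 to 19.1 in proliferative and 71.3 to 92.6 in hypertrophic samples. Those of 14 endothelial markers were 6.56 to 7.03 in prehypertrophic, 5.08 to 6.3 in proliferative and 15.1 to 19.8 in hypertrophic samples. The sums of 13 osteoclast markers were 17.5 to 21.2 in prehypertrophic, 16.1 to 20.7 in proliferative and 43.8 to 54.9 in hypertrophic samples. The sums of 10 resting zone and articular markers were 13.9 to 21.1 in prehypertrophic, 64.5 to 99.3 in proliferative and 7.94 to 14.3 in hypertrophic samples.

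Egr1, Rbp4, Mgp and Mmp13 were lower than in the hypertrophic zone, where the leukocyte, erythroid, endothelial and osteoclast sums were highest. Egr1, Rbp4 and Mgp were also below the proliferative zone, with steps of -1.37, -1.73 and -2.94, whereas that of Mmp13 was -0.15. The part of marrow, vessel and bone cells in these values was not tested. Of the 12 osteoblast markers 3 were highest (25%) and 2 lowest (16.7%). The osteoblast collagens Col1a1 and Col1a2 were lowest, by -2.74 ± 0.04 and -1.40 ± 0.09, although other probes of Col1a1 gave 0.31 and 0.04. The marker Bglap went the other way, with array ratios of 0.28 and 0.31 over hypertrophic and 1.19 and 1.04 over proliferative samples. Pth1r, on the same list, was highest. The sums of 9 osteoblast markers were 86.8 to 126 in prehypertrophic, 62.5 to 93.4 in proliferative and 121 to 180 in hypertrophic samples. Pth1r, a bright gene with prehypertrophic levels of 5.74 to 6.49 on the log2 scale, weighs heavily in these sums. They are therefore no measure of osteoblasts alone. For 18 markers of perichondrium, muscle and tendon the sums were 126 to 166 in prehypertrophic, 113 to 134 in proliferative and 55.9 to 68.4 in hypertrophic samples. Thbs4 and Thbs1, matricellular thrombospondins on these marker lists, were highest by 1.40 ± 0.03 and 1.55 ± 0.03, the first not with probes averaged, and other probes of Thbs1 gave 0.40 and 0.48.

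**Figure D5:**
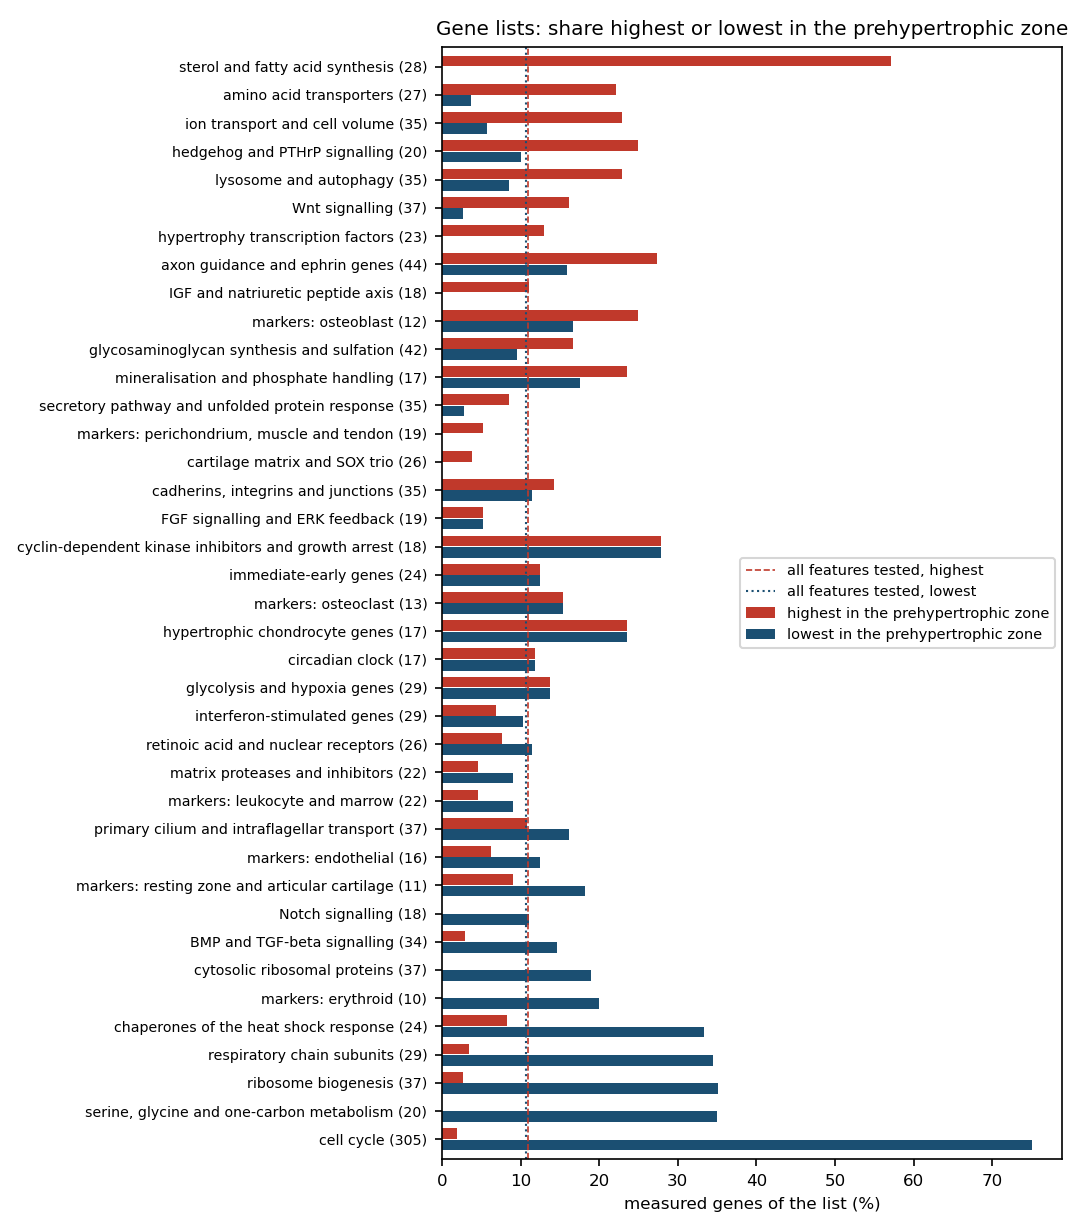
Bars give, for each list (number of measured genes in brackets), the percentage highest (red) and lowest (dark blue) in the prehypertrophic zone, and the vertical lines give the same for all 27173 features (11.0% and 10.7%). Sterol and fatty acid synthesis lies at one end with 57.1% highest and the cell cycle at the other with 75.1% lowest.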

How the data were processed

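Amplified RNA of the 3 zones was labelled with Cy3 or Cy5 and hybridised in pairs to 6 arrays. Per the file headers, the authors extracted each spot's intensity with Agilent Feature Extraction 8.1.1.1, with background subtraction, spatial detrending and dye normalization within the array. The authors also deposited a value table of log2 values; in it 1 of 12 columns matched its own sample best and 6 matched the same zone, and its values were not used. Log2 ratios of the processed intensities were loess-normalized within arrays; control spots and 7249 ratios with an outlier flag, 4479 of them on 1 array, were left out. Probes were kept where 4 or more samples exceeded background by the software's call (40017 of 41174), and the brightest probe stood for each gene, giving 27173 features with a fit. The 6 ratios were fitted with zone and dye terms in limma 3.58.1 (R 4.3.3), with 3 residual degrees of freedom, and Benjamini-Hochberg adjustment over all features; the fit was tested on simulated data. The number of arrays limits the precision.

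The members and the 39 gene lists were chosen with earlier results of these data known. Genes named are the 15 highest and the 15 lowest by the smaller step (the lowest without cell cycle genes), up to 4 called genes of each list, and Ihh, Pth1r, Col10a1, Alpl, Mef2c, Sox9, Ptch1, Gli1, Mki67 and Cd200; all sterol genes were named to account for the list. Symbols came from the platform annotation. Promoter sequences are from RefSeq (GRCm38.p6). Alternatives covered the normalization, the filter, the probe rule, the dye term, moderation, outlier flags, separate channels, a replicate block, averaging of paired arrays and leaving out each array.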

Additional observations from a re-analysis of the deposited data

Results flagged for a closer look

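Among 540 sets of 4 samples of a zone, over 185 genes, 19 (3.52%) had 1 sample far from the other 3 by Dixon's criterion, and chance flags about 1 in 20. No explanation was tested for any of them. In the prehypertrophic zone, Foxa3 was at 3 in sample 2, against 2.65 to 2.68 in the others, and sample 1 was high for Mki67 (1.92, against 1.36 to 1.42) and Ier3 (-1.04, against -1.79 to -1.75). Prehypertrophic sample 4 was low for Notch2 (0, against 0.25 to 0.29), Dkc1 (-1.55, against -1.05 to -0.96), Cep290 (-0.73, against -0.39 to -0.36), Ust (-1.51, against -1.4 to -1.38), Postn (-1.89, against -1.44 to -1.4) and Panx3 (5.74, a saturated spot, against 6.48 to 6.59).

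In the proliferative zone, sample 1 was high for B3galnt1 (-0.28, against -0.6 to -0.55), Pbk (1.5, against 1.09 to 1.15) and Postn (-2.07, against -2.19 to -2.18). Proliferative sample 2 was low for Cd200 (-0.72, against -0.11 to -0.01), and sample 4 was low for Esrra (-2.4, against -1.96 to -1.88) and high for Prtn3 (1.07, against 0.2 to 0.31). In the hypertrophic zone, sample 1 was low for Esrra (-1.73, against -1.54 to -1.53) and high for Psat1 (1.23, against 0.95 to 0.98) and Rplp0 (6, against 5.97 in the others), and sample 2 was low for Ttc21b (-2.24, against -1.98 to -1.95).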

How the results depend on the processing

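Averaging both arrays of a pair of zones gave 4028 features higher than the outer mean, 3433 higher than the proliferative zone, 1180 highest and 1938 lowest, with 3 glycosaminoglycan and 5 ion transport genes highest; this fit rests on fewer values. Without a dye term 1840 features were highest, and averaging a gene's probes left 5 ion transport genes highest. Leaving out 1 array at a time gave 4138 to 5654 features higher than the proliferative zone, 1740 to 2542 highest and 3 to 5 glycosaminoglycan genes highest. The counts of features highest and lowest by at least 2-fold, and of sterol, cell cycle, ribosome biogenesis, respiratory chain and serine genes, stayed within 1.5 times under each alternative that was run.

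Some genes turned direction. The step given for each is the one least in the direction of its class in the main fit. Dock10 became 0.228 (step 0.239) when all 12 samples had to be well above background, a filter that removes its brightest probe. With probes averaged, the difference became -0.027 for Runx3 (step -0.123), -0.262 for Tek (-0.643), 0.05 for Pecam1 (0.061) and -0.075 for Calcr (-0.098). That step alone turned for Socs2 (-0.698), Trib3 (-0.432), Panx1 (0.21) and Cry1 (0.006). Gli1, which did not pass, was 0.01 with no normalization beyond Feature Extraction, 0.039 with a replicate block and -0.029 to 0.013 without single arrays. The cause was not tested.

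Same-numbered samples deviated together on a shared array (r = 0.39 to 0.61, 4 pairs) and with r = -0.25 to 0.3 on different arrays (8 pairs, 2 of them above 0.1). The 4 pairs of prehypertrophic and proliferative samples all lay above 0.1 (0.26, 0.3, 0.5 and 0.61), whereas those with the hypertrophic zone did not all, so the numbers were not taken to pair the 3 zones. In the step from the proliferative zone, the separate-channel fit called 6594 features higher and 6551 lower with the replicate block, and 6995 and 6721 without it. Against the outer mean, that fit with the block called 6671 features higher and 6792 lower, with 2816 highest and 3200 lowest; without the block it called 7775, 7448, 3244 and 3352. Normexp background correction was not run, because the mean and background signals it needs were not used here. Saturation and signals near background limit single genes as stated.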
